A study of Drosophila melanogaster with 2 samples.

Results

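The nuclear genes for the mitochondrial respiratory chain were examined for promoter binding of CG9932, a Drosophila melanogaster protein, in whole embryos. The set held the protein-coding genes whose annotated symbol begins with ND-, COX and a digit, UQCR- or ATPsyn, or is SdhA, SdhB, SdhC, SdhD, RFeSP or Cyt-c1. It came to 88 genes out of 13865 that code for protein on 2L, 2R, 3L, 3R and X. ND-49 and ATPsynbeta carry such symbols but lie on chromosome 4, and were left out. Of the 88 genes, 63 were named as subunit genes, with 33 in complex I, 4 in complex II, 8 in complex III, 8 in complex IV and 10 in complex V. The other 25 were suffixed paralogs, genes named after a subunit gene with an added L, L1 or L2, with 6, 3, 4, 8 and 4 in complexes I to V. A symbol was the only evidence used for membership.

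There was 1 group of 2 samples, labelled as biological replicates. Each was chromatin of embryos 8 to 24 h old from transgenic flies that carry a CG9932-eGFP fusion, sheared by sonication to 200 to 800 bp and precipitated with an antibody against GFP. Both samples carried the fusion, the embryos were not sorted by tissue, and no untagged or input sample was analysed here. A peak thus stands for enrichment with the GFP antibody somewhere in the embryo, and its dependence on the fusion was not tested. The deposited peak lists give positions in the dm6 assembly, a signal from the peak caller and a score from the irreproducible discovery rate (IDR), which ranks peaks by how well 2 rankings match. They hold no read counts, so depth per sample is unknown.

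The respiratory chain sits in the inner mitochondrial membrane. Complex I takes electrons from NADH and complex II takes them from succinate, complex III passes them to cytochrome c, complex IV hands them to oxygen, and complex V, the ATP synthase, uses the proton gradient to make ATP. Most subunits are encoded in the nucleus by genes scattered over the chromosomes, and accessory subunits surround the core subunits that do the catalysis. In Drosophila many of these genes have a duplicate copy, and such copies are known for expression in the testis.

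A gene was called bound when a summit of the conservative IDR set, the authors' stricter set of peaks shared by both replicates, lay within 500 bp of any of its annotated transcription start sites (TSS). The sequences under the strongest promoter peak of complexes I, II, IV and V are shown first, because these are the sites the values below refer to. Each runs 5′ to 3′ along the strand of the gene, from 50 bp before to 50 bp after the summit, and stops where an annotated exon of any gene begins. Capitals mark CAGCTG, an E-box; the other motifs searched, whose letters and shares are given with the promoter motifs, have no match there. ATPsynE had a stronger peak than ATPsynCF6, but exons left fewer than 25 bases of its window, so ATPsynCF6 is shown.
ND-ASHI (chrX:6679322-6679422, minus strand): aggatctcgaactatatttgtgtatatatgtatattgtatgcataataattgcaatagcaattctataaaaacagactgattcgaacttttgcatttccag
SdhD (chr3R:23760601-23760659, minus strand): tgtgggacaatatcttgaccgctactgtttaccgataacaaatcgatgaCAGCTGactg
COX5A (chr3R:11819470-11819547, plus strand): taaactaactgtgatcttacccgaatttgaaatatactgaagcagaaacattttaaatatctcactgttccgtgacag
ATPsynCF6 (chr3R:23356090-23356190, minus strand): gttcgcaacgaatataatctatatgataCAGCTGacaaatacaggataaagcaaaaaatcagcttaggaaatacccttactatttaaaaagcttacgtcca

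Of the 4 windows 2 held an E-box, those of SdhD and ATPsynCF6. Relative to the gene's TSS nearest the summit, the window of ND-ASHI ran from −304 to −204 bp and that of SdhD from −59 to −1. That of COX5A ran from −129 to −52 and that of ATPsynCF6 from −126 to −26.

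Called bound were 29 of the 88 genes, or 33.0% (95% Wilson interval 24.0 to 43.3), beside 30.0% of all protein-coding genes under the same rule. The 88 genes as a whole were close to the background. Subunit genes were bound in 29 of 63 cases, or 46.0% (34.3 to 58.2), and suffixed paralogs in 0 of 25 (interval up to 13.3%). By the simpler rule of 3 counts over the number of genes, a count of 0 in 25 allows up to 12%. These intervals cover counting error only. Over all genes, neighbours that share a summit are not independent, while the 29 bound genes of the set had 29 separate summits. The difference is given as counts without a test. When each summit was given to its nearest gene alone, subunit genes were bound in 18 of 63 cases, beside 22.9% of all genes.

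**Figure D1:**
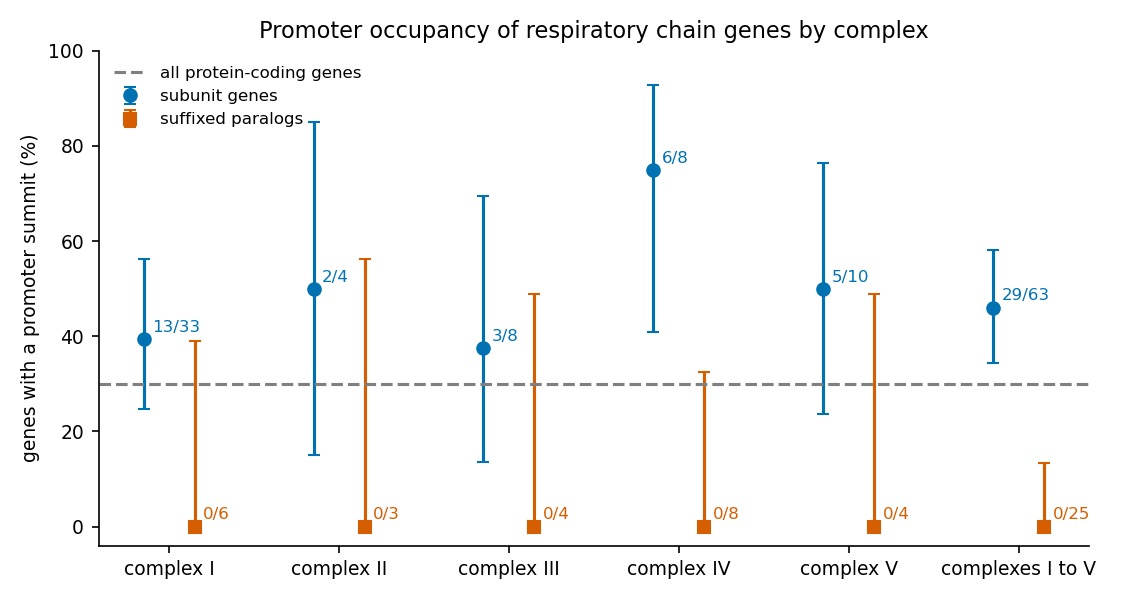
Share of genes with a conservative summit within 500 bp of a TSS, in percent, for subunit genes (circles) and suffixed paralogs (squares) of each complex and of all 5 together. Bars are 95% Wilson intervals, the counts are printed beside the points, and the dashed line is the 30.0% of all protein-coding genes. Complex IV stood highest at 6 of 8 under this rule, but at 2 of 8 when each summit went to its nearest gene alone, and the paralogs of every complex were at 0.

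By complex, the bound share of subunit genes was highest in complex IV, at 6 of 8 genes or 75% (40.9 to 92.9). Complexes II and V followed with 2 of 4 genes (15.0 to 85.0%) and 5 of 10 genes (23.7 to 76.3%). In complex I, 13 of 33 genes or 39.4% (24.7 to 56.3) were bound, and in complex III 3 of 8 or 37.5% (13.7 to 69.4). The intervals of all 5 complexes overlapped one another. Only that of complex IV lay wholly above the 30.0% of all genes. All 6 summits of complex IV also lay within 500 bp of another gene's TSS. When each summit was given to its nearest gene alone, under which 22.9% of all genes were bound, complex IV kept 2 of 8 genes, beside 4 of 10 in complex V and 3 of 8 in complex III, so its place at the top turned. Within complex I, 3 of 6 genes for core subunits and 10 of 27 for accessory subunits were bound.

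Peaks at the 29 bound genes had a median signal of 323, beside 264 for all 4162 bound genes. Median signals ordered the complexes as IV (487), I (369), V (291), III (222) and II (150). The range within complex I, from 94.2 to 1209, spanned the ranges of all the others. All 6 peaks of complex IV lay between 323 and 575.

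Complex I held the strongest peak of the set. Gene by gene, the values given are peak signals. At ND-ASHI, an accessory subunit of the membrane arm, the signal was 1209 in the conservative set, 666 in replicate 1 and 542 in replicate 2. This was rank 169 among 6829 conservative peaks. ND-MWFE, another membrane-arm accessory subunit, reached 840, with 517 in replicate 1 and 314 in replicate 2. Its summit lay 167 bp upstream of ND-MWFE but nearer to TppII, at 54 bp. ND-SGDH, also of the membrane arm, had 603, with 369 and 234. In all 3 genes replicate 1 gave the higher value and both replicates called the peak.

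Among the core subunits, which include those with the redox centres, ND-24 and ND-51 belong, with ND-75, to the part that takes electrons from NADH. ND-24 reached 720, with 433 in replicate 1 and 284 in replicate 2. ND-51 had 532, with 280 and 247. The third bound core gene was ND-23, an iron-sulfur subunit nearer the quinone site, at 267, with 141 and 123. ND-24 and ND-51 were among the 5 strongest of complex I, ND-23 was lower, and ND-75 was not bound.

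The remaining bound complex I genes were accessory, and their signals were 414 (ND-MNLL), 369 (ND-42), 268 (ND-B17), 252 (ND-B22), 143 (ND-B8), 101 (ND-13B) and 94.2 (ND-B18). Of the 3 core genes that were not bound, ND-20 had no ranked peak within 500 bp of a TSS. ND-75, the largest iron-sulfur subunit, had a best score of 72. ND-30, a subunit of the arm that projects into the matrix, had a score of 776 and a signal of 86.1, short of the 830 that was the lowest score in the conservative set. A score of 830 corresponds to a global IDR of 0.0100.

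In complex II the membrane anchor genes SdhD and SdhC were bound, and the genes for the flavoprotein SdhA and the iron-sulfur protein SdhB were not. SdhD reached 172, with 99.7 in replicate 1 and 66.0 in replicate 2. SdhC had 128, with 81.0 and 41.8, and its peak was in the replicate 2 ranked list but not in the thresholded set of that replicate. The SdhC summit lay 314 bp from its TSS and 84 bp from that of Tctp, and SdhC was also unbound with a promoter of 200 bp, with the stronger peaks alone and under the nearest-gene rule, while SdhD stayed bound. The best scores at SdhA and SdhB were 34 and 257, and their nearest conservative summits lay 27316 and 2229 bp from a TSS.

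In complex III the bound genes were UQCR-14, Cyt-c1 and UQCR-C2. UQCR-14, a small subunit, reached 287, with 198 in replicate 1 and 92.9 in replicate 2. Cyt-c1, the haem protein that reduces cytochrome c, had 222, with 143 and 80.4. UQCR-C2, a core protein of the matrix side, had 99.2, with 59.0 and 44.3, and was not in the thresholded set of replicate 2. All 3 summits lay between 61 and 15 bp upstream of the nearest TSS of the gene, and no other gene had a TSS within 500 bp of them. At UQCR-C2 that was not the first TSS, and the summit lay downstream of the first.

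Of the 5 unbound complex III genes, RFeSP, the Rieske iron-sulfur protein, came nearest with a score of 623 and a signal of 74.5 at −96 bp. UQCR-Q had 426, UQCR-C1, the partner of UQCR-C2, had 86 and UQCR-11 had 34. UQCR-6.4 had no ranked peak within 500 bp. None of these 5 was in the thresholded set of either replicate.

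Every bound complex IV gene was in the thresholded set of both replicates. COX5A, a subunit of the matrix side, reached 575, with 347 in replicate 1 and 227 in replicate 2. COX6B, on the side that faces cytochrome c, had 550, with 328 and 224. COX8, a short membrane-spanning subunit, had 512, with 288 and 212. The other bound genes followed closely below these 3.

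COX7B reached 461, with 284 in replicate 1 and 173 in replicate 2. COX5B, which faces the matrix, had 424, with 267 and 171, and COX7C had a conservative signal of 323, with 220 and 104. The catalytic subunits of this enzyme are encoded in the mitochondrial genome and are outside the set. The unbound genes were COX4, with a best score of 34, and COX7A, with no ranked peak within 500 bp. No score of an unbound complex IV subunit gene came near 830.

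In complex V the strongest peak was at ATPsynE, a small membrane subunit, at 535, with 267 in replicate 1 and 259 in replicate 2. ATPsynCF6, a part of the peripheral stalk, had 390, with 248 and 138. ATPsynF, a membrane subunit, had 291, with 182 and 94.7. ATPsynE was the gene whose replicate values were closest to each other.

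ATPsynB, of the peripheral stalk, stood at 170, with 106 in replicate 1 and 69.4 in replicate 2. ATPsyngamma, the shaft that turns inside the catalytic head, had 163, with 93.1 and 59.2, and was not in the thresholded set of replicate 2. The 5 unbound genes encode the membrane ring subunit ATPsynC, the stalk subunits ATPsynD and ATPsynO, ATPsyndelta of the central stalk and ATPsynG of the membrane part. ATPsynO had a score of 751 and a signal of 92.9, and was in the thresholded set of replicate 1 with a signal of 67.5. ATPsynC had the full score of 1000 and a signal of 227 at −114 bp, but that ranked peak is not in the conservative set.

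**Figure D2:**
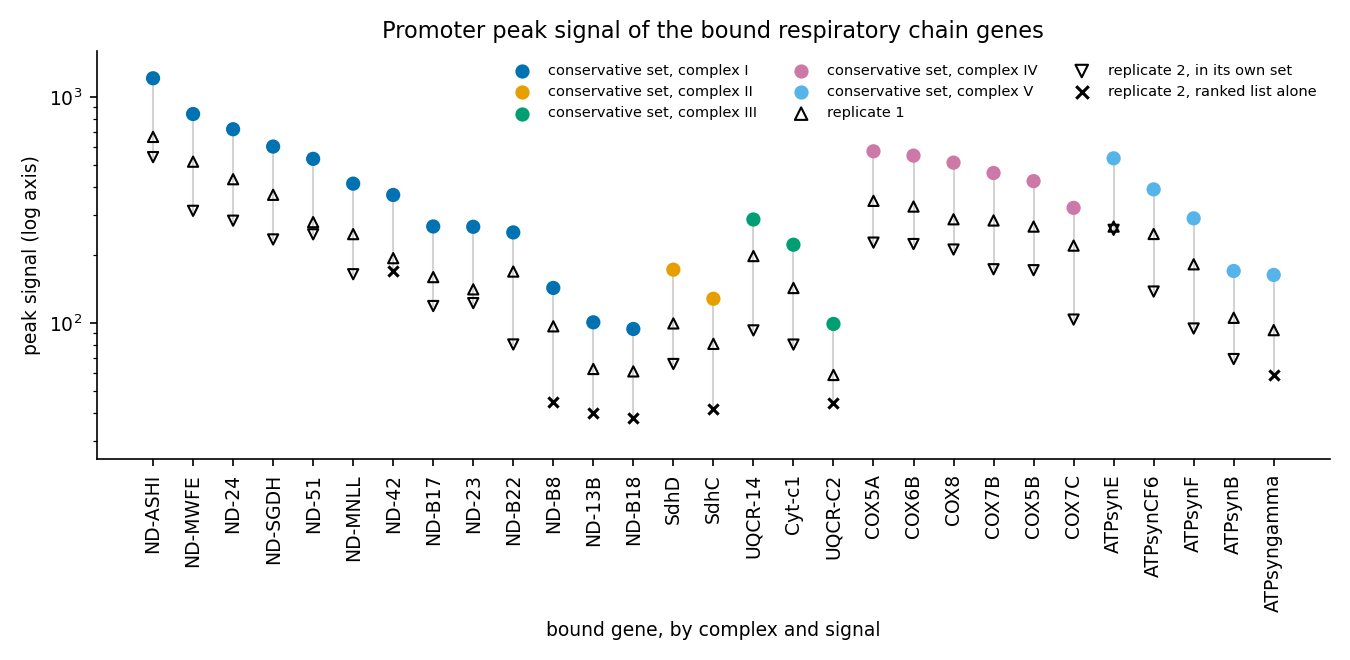
Signal of the promoter peak of each of the 29 bound genes on a log axis, ordered by complex and signal. Filled circles are the conservative set, upward triangles replicate 1, downward triangles replicate 2 where its own thresholded set holds the peak, and crosses replicate 2 where only its ranked list does. Replicate 1 was above replicate 2 at every gene, and the crosses fell on 7 genes.

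Replicate 1 gave the higher signal at all 29 genes, by a median factor of 1.56 and a range of 1.03 to 2.15. At the 6476 conservative summits with a peak in both ranked lists, replicate 1 was higher in 84.3%, by a median factor of 1.31. How the signals of each list were scaled is unstated in the labels and file descriptions, so the factor describes the lists. Replicate 1 bound 31 of the 88 genes in its own set, beside 30.3% of all genes, and replicate 2 bound 22, beside 24.0%. All 22 of the latter were also in the former. The 7 conservative genes missing from the replicate 2 set were ND-42, ND-B8, ND-13B, ND-B18, SdhC, UQCR-C2 and ATPsyngamma, and 6 of them had conservative signals of 163 or lower.

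Summits lay close to the nearest TSS of the gene and mostly upstream of it. At COX5A, ND-B18, ND-B22, UQCR-C2 and ATPsyngamma that was not the first TSS, and the summit lay downstream of the first. The median position was −76 bp for the 29 genes and −102 bp for all bound genes. Upstream positions made up 26 of 29 or 89.7%, beside 88.0% of all bound genes. Within 200 bp lay 25 of 29 or 86.2%, beside 74.2%. The 4 genes outside 200 bp were SdhC at −314, COX5B at −266, ND-ASHI at −254 and COX7C at +317 bp.

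**Figure D3:**
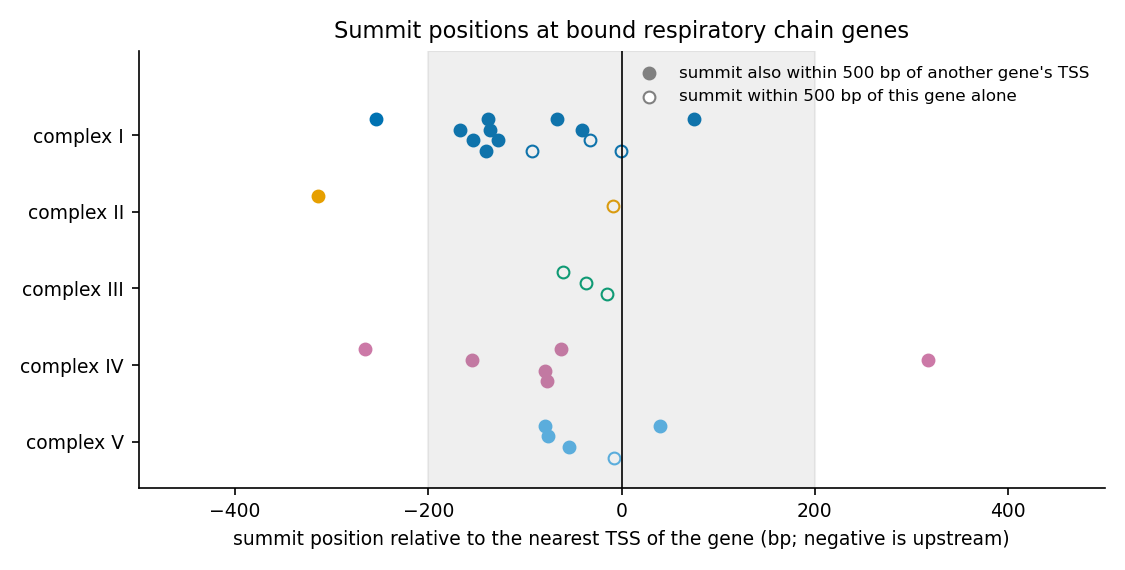
Position of the summit relative to the nearest TSS of each bound gene in bp, by complex, with negative values upstream and the band of 200 bp either side shaded. Filled points are summits that also lie within 500 bp of another gene's TSS. Of the 29 summits 21 were shared in this way, among them all 6 of complex IV and none of complex III.

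The respiratory chain gene was often not the only gene at its peak. For 21 of the 29 genes the summit was also within 500 bp of a TSS of another protein-coding gene, and in 11 of the 29 cases another gene's TSS was nearer. When each summit was given to its nearest gene alone, 18 of the 88 genes were bound, all of them among the 63 subunit genes. Under this rule 22.9% of all genes were bound, so the 88 genes stood below the background and the subunit genes above it. Of the 29 genes 18 thus stayed bound, beside 3172 of the 4162 bound genes overall in the genome. The nearest-gene rule left 8 in complex I, 1 in complex II, 3 in complex III, 2 in complex IV and 4 in complex V. Genes tied for the nearest TSS were all kept, as at ND-MNLL, whose summit lay at −67 bp for both ND-MNLL and CG45089. In complex IV the summits of 4 of the 6 genes, COX6B, COX7B, COX5B and COX7C, were nearer to another gene. In complex I the nearer gene was TppII at ND-MWFE, CG13994 at ND-51, Cchl at ND-42, spn-E at ND-23 and Secp43 at ND-B8. Elsewhere it was Tctp at SdhC and CG3548 at ATPsynF.

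Among the partners, Fum1 and Cchl also act in mitochondria. The ND-ASHI summit, at 254 bp upstream of ND-ASHI, lay 268 bp upstream of Fum1, a fumarase of the tricarboxylic acid (TCA) cycle. ND-42 shared its summit with Cchl, a cytochrome c haem lyase, at 136 bp upstream of ND-42 and 93 bp upstream of Cchl. COX8, with its summit at −77 bp, shared it with VhaM9.7-b, a subunit of the vacuolar proton pump, for which it lay at −338 bp. Other partners belong to other processes, such as the secretory genes Sec13 at ATPsynCF6 and Sec3 at COX7B.

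At COX7C the summit was 317 bp downstream of its TSS and 51 bp upstream of oys, and at COX5B it was 266 bp upstream and 32 bp from IFT52. These 2 complex IV genes and ND-ASHI and SdhC were the 4 lost when the promoter was narrowed to 200 bp, where 25 genes stayed bound, beside 23.4% of all genes. A promoter of 1000 bp bound 31 genes, beside 33.7%, and added ND-B14.5B and ATPsynD.

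Other definitions moved the count little. The optimal set, the authors' more permissive list, bound 32 genes, beside 31.5% of all genes, with ND-30, ND-B14.5A, RFeSP and ATPsynO gained and ND-13B lost. The peaks with a signal above the set's median of 160 bound 24, beside 21.7%. Peak centres in place of summits bound 29, beside 30.0%, and the first TSS of each gene alone bound 29, beside 27.6%. The suffixed paralogs stayed at 0 under each of these definitions and in the set of each replicate.

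Subunit genes had crowded promoters. A TSS of another protein-coding gene lay within 500 bp for 36 of 63 subunit genes or 57.1%, for 3 of 25 paralogs or 12%, and for 31.0% of all genes. Over all genes, such a neighbour went with binding in 52.9% of cases, and its absence in 19.8%. Subunit genes with a neighbour were bound in 21 of 36 cases or 58.3%, and those without in 8 of 27 or 29.6%. Paralogs without a neighbour were bound in 0 of 22 cases. The share of this crowding in the count of bound subunit genes was not tested.

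Paralogs also differed from subunit genes in structure. Their median length was 758 bp, beside 1178 bp for subunit genes and 2156 bp for all genes. A single annotated TSS was found for 22 of 25 paralogs or 88%, beside 33 of 63 subunit genes and 73.6% of all genes. The start of 10 paralogs or 40% lay inside another gene, beside 6 subunit genes and 15.0% of all genes, and 6 paralogs but no subunit gene lacked an intron. Genes with 1 TSS and no close neighbour were bound in 14.6% of cases over the whole genome, and 19 of the 25 paralogs were of this kind.

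The 25 paralogs are named after 22 genes. Of these, 20 lie on the 5 large arms, and 10 of the 20 were bound. The bound genes and their unbound copies were ND-24 with ND-24L, ND-51 with ND-51L1 and ND-51L2, SdhC with SdhCL, Cyt-c1 with Cyt-c1L, UQCR-14 with UQCR-14L, COX5B with COX5BL, COX7C with COX7CL and ATPsynCF6 with ATPsynCF6L. To these come levy with COX6AL and COX6AL2, and cype with COX6CL, since levy encodes COX6A and cype COX6C under other symbols. In each of these 12 pairs a conservative summit lay within 500 bp of a TSS of the subunit gene and none within 500 bp of the copy. At ND-51, SdhC, COX5B and COX7C that summit was nearer to another gene, namely CG13994, Tctp, IFT52 and oys. For levy and cype the nearest gene was not determined.

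Protein identity between the members of a pair, over a global alignment of the longest annotated proteins, ranged from 13.2% to 85.6% over 23 pairs, with a median of 44.4%. Aligned columns included gaps, which lowers the value of a pair of unlike lengths. The lowest value was that of levy with 109 residues and COX6AL2 with 289. UQCR-14 and UQCR-14L were the most alike, with 95 identical residues in 111 aligned columns, and UQCR-14 carried a signal of 287 while no conservative summit lay within 34888 bp of UQCR-14L. Cyt-c1 and Cyt-c1L shared 58.3%, and the nearest summit to Cyt-c1L was 3356 bp away. SdhC and SdhCL, of 171 and 261 residues, shared 26.2%, and the nearest summit to SdhCL was 7388 bp away. COX7CL was the paralog nearest to any summit, at 1678 bp.

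The upstream sequences of SdhC and SdhCL are shown so that the promoter of a bound gene can be read against that of its unbound copy. Each covers the 100 bp before the TSS, 5′ to 3′. Capitals mark the only match among the motifs searched, CTCTC in SdhCL, which is GAGAG on the other strand.
SdhC (chr3R:11209850-11209949, minus strand): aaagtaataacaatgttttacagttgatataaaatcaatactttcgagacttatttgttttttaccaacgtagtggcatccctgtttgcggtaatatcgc
SdhCL (chr3R:11115707-11115806, minus strand): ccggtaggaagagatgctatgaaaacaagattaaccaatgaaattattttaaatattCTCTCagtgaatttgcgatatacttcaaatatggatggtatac

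At SdhC the summit lies upstream of the printed stretch, 314 bp from the TSS, beside Tctp.

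The weaker peaks of the joint ranked list, which holds 124532 peaks before any threshold, were searched for signal at unbound genes. Of the 34 unbound subunit genes 23 or 67.6% had a ranked peak within 500 bp of a TSS, with a median best score of 94. Of the 25 paralogs 12 or 48% had one, with a median best score of 156. Over all 9703 unbound genes the share was 62.1% and the median score 116. Unbound subunit genes were a little above the background share and paralogs below it. A score of 830 or more was reached by ATPsynC and by COX7AL2.

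At COX7AL2 the ranked peak had a score of 1000 and a signal of 261, at 497 bp downstream of a TSS and so at the edge of the window. Of all unbound genes 87 or 0.897% had a ranked peak at or above 830 that is not in the conservative set. The joint ranked list held 7065 peaks at or above that score and the conservative set 6829. What took those peaks out of the set was not stated in the labels or file descriptions.

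**Figure D4:**
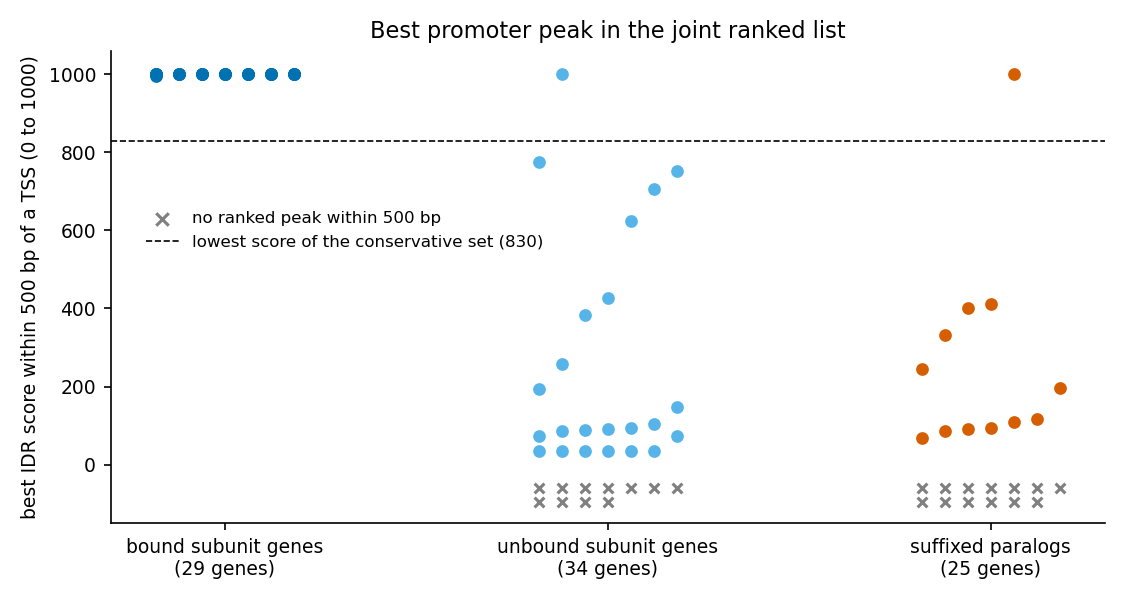
Best IDR score, from 0 to 1000, among ranked peaks with a summit within 500 bp of a TSS, for 29 bound subunit genes, 34 unbound subunit genes and 25 suffixed paralogs. Crosses below 0 are genes with no ranked peak there, and the dashed line is 830. Apart from ATPsynC and COX7AL2, the unbound genes lay at or below 776.

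The nearest conservative summit was a median of 5068 bp from a TSS for unbound subunit genes and 8220 bp for paralogs, beside 7584 bp for all unbound genes. The closest unbound subunit genes were ATPsynD at 754 bp and ND-B14.5B at 824 bp. The farthest were ND-AGGG at 467009 bp and ND-MLRQ at 454240 bp.

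A few subunit genes carry other symbols and fall outside the rule. Of these levy had a signal of 1548, above every gene of the set, with 888 in replicate 1 and 676 in replicate 2. The gene blw, which encodes the catalytic-head subunit ATPsynalpha, had 1090, with 620 and 479. The genes ox and cype had 269 and 171, and sun, which encodes ATPsynepsilon, was unbound with no ranked peak within 500 bp. The cype peak lay at −452 bp, and another conservative summit lay 3 bp from a TSS of cype. With these 5 genes added, complex IV would count 8 of 10, complex V 6 of 12 and complex III 4 of 9 under the 500 bp rule. The 5 genes were not counted under the nearest-gene rule.

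Promoter sequences from 250 bp before to 50 bp after the first TSS, 300 bp in all, were searched on both strands for letters bound by known factors. GGTCACAC, the core of Motif 1, which binds M1BP, was found in 16 of 63 subunit genes or 25.4%, in 1 of 25 paralogs and in 7.72% of all promoters. Of the subunit genes with it 5 were bound and 11 were not. Its share was therefore 17.2% in bound and 32.4% in unbound subunit genes, whereas over all genes it was 11.6% in bound and 6.04% in unbound ones. The window follows the first TSS and misses the summits of some bound genes, such as SdhC, COX7C and UQCR-C2. UQCR-C2 had GGTCACAC within 50 bp of its summit but counts here as without it. The bound and unbound shares thus describe the window and not the peaks.

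Unbound genes with GGTCACAC were ND-13A, ND-18, ND-ACP, ND-B14, ND-PDSW, SdhB, RFeSP, UQCR-6.4, COX4, ATPsynC and ATPsynD. The bound ones were ND-MWFE, ND-B17, COX5A, COX7B and COX5B. Complex IV thus had 4 of its 8 subunit genes with the element. A match is a description of the letters and not a site of binding.

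CAGCTG, the E-box, was found in 19 of 63 subunit promoters or 30.2%, 2 of 25 paralogs and 17.7% of all promoters. The E-box was in 7 of the 29 bound and 12 of the 34 unbound subunit genes, beside 22.1% of all bound and 15.9% of all unbound genes. TATCGATA, the element bound by Dref, was found in 9 subunit genes or 14.3%, in 0 paralogs and in 9.36% of all promoters. It was in 3 of the 29 bound and 6 of the 34 unbound subunit genes, whereas over all genes the share was 15.6% in bound and 6.67% in unbound ones. GAGAG, a repeat bound by GAGA factor, went the other way, with 11 subunit genes or 17.5%, 11 paralogs or 44% and 29.8% of all promoters. Bound subunit genes had GAGAG in 7 of 29 cases and unbound ones in 4 of 34, beside 29.7% of all bound and 29.8% of all unbound genes.

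Rarer letters were CGGAAG of Ets factors, in 1 subunit gene, 1 paralog and 6.35% of all promoters, and AAGGTCA, a site of the nuclear receptor ERR, in 1 subunit gene, 0 paralogs and 2.11%. The NRG element, described upstream of nuclear genes for respiration, was found in 0 of the 88 genes and in 22 of 13865 promoters. CTATCGA, which overlaps TATCGATA and was added after the letters near summits had been seen, was in 5 of 29 bound and 1 of 34 unbound subunit genes, beside 21.1% of all bound and 8.70% of all unbound genes.

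**Figure D5:**
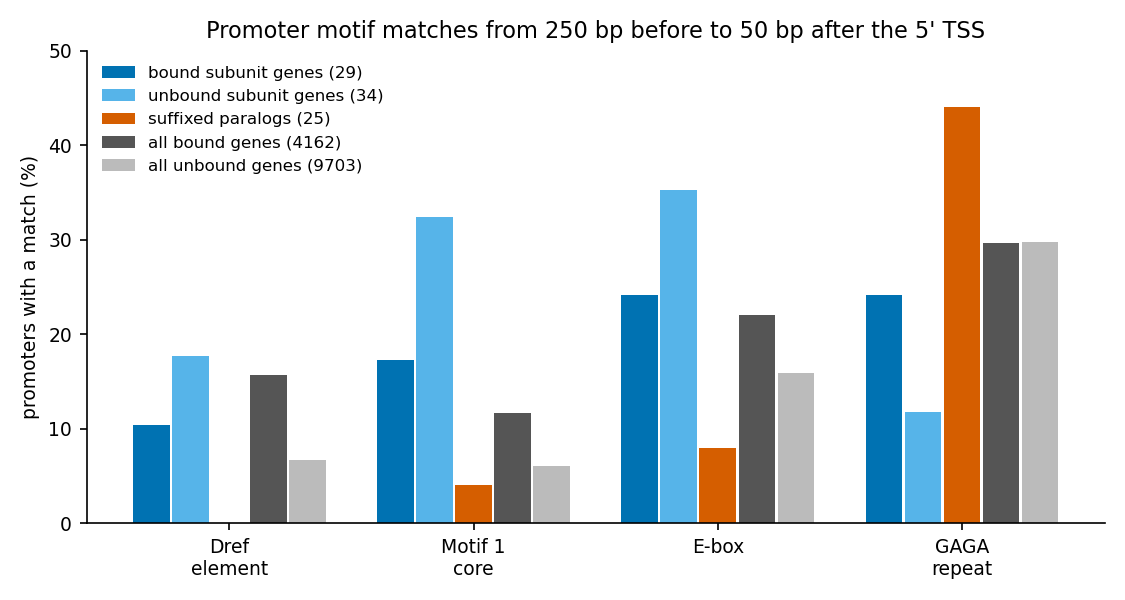
Share of promoters with at least 1 match on either strand, in percent, for 4 elements and 5 groups of genes, whose sizes stand in the legend. Bars start at 0. The window follows the first TSS and misses the summits of some bound genes. Unbound subunit genes were highest for the Dref element at 17.6%, the Motif 1 core at 32.4% and the E-box at 35.3%, and paralogs were highest for the GAGA repeat at 44%.

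Within 50 bp of the 29 summits, CAGCTG was found at 5 or 17.2%, beside 5.16% of 6789 summits on the 5 arms. The 6789 include summits away from promoters, so they are not a matched background for the 29. The genes were ND-13B, ND-B18, SdhD, UQCR-C2 and ATPsynCF6. TATCGATA was found at SdhC and UQCR-14, beside 3.26% of all summits, and CTATCGA at UQCR-14 and COX6B, beside 5.23%. GGTCACAC was found at UQCR-C2 alone, beside 1.37%, and GAGAG at COX6B and ATPsynB, beside 10.8%. Of the 5 strongest peaks of the set, none had any of these letters within 50 bp.

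Bound genes were found on each of the 5 arms. On 2L 5 of 17 genes were bound, beside 28.5% of all genes of that arm, on 2R 3 of 17 (28.7%), on 3L 7 of 21 (29.9%), on 3R 8 of 20 (30.5%) and on X 6 of 13 (32.9%).

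Genes that work beside the complexes were counted by the same rule. The TCA cycle feeds electrons to complexes I and II. Its list also held the pyruvate dehydrogenase genes Pdha, Pdhb and muc, of which Pdhb and muc were bound. Of the 13 genes found in that list 9 or 69.2% were bound, beside the 30.0% of all genes. The strongest peaks were at Fum1, the summit it shares with ND-ASHI, at Idh3g, a subunit of isocitrate dehydrogenase, at 748 (replicate 1 416, replicate 2 343), and at Pdhb of pyruvate dehydrogenase with 699 (385 and 314).

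In a list of cytochrome c, electron carriers and enzymes such as Coq7 and Dhod, 5 of 9 genes were bound. Coq7, an enzyme of ubiquinone synthesis, had 934 (528 and 403), Etfb, a subunit of electron transfer flavoprotein, had 427 (254 and 166) and Dhod, dihydroorotate dehydrogenase, had 426 (259 and 169). Of the cytochrome c genes Cyt-c-d was bound with a signal of 407 at 355 bp downstream, and Cyt-c-p was not, with a best score of 92.

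Among assembly factors 6 of the 16 genes found were bound. CIA30, a complex I assembly factor, had 4727 (2700 and 2091), Ttc19 of complex III had 649 (407 and 255) and Cox17, a copper chaperone of complex IV, had 443 (266 and 165). Of the carriers of the mitochondrial membranes 4 of 11 were bound, led by Ucp4A at 987, sea, the citrate carrier, at 749 and Mpc1 of the pyruvate carrier at 325. Of regulators and genes for the mitochondrial genome 5 of 14 were bound, led by ERR at 1066, mtSSB, the single-strand binding protein of mitochondrial DNA, at 608 and PolG2 at 326. Bound shares in the last 3 lists ran from 35.7% to 37.5%, near the 30.0% of all genes. The list with the electron carriers stood at 55.6%, from 9 genes.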

How the data were processed

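Chromatin immunoprecipitation sequencing of CG9932-eGFP was deposited as peak lists for 2 replicates, singly and jointly, in dm6 per the file descriptions, derived from alignments of the immunoprecipitation and a control. Per the same descriptions, the authors thresholded and ranked the lists by IDR. For the aligner, the peak caller and the scaling of the signal: not given in the sources used here. From the deposited lists, the peak positions, the signal, the IDR score and, in the joint ranked list, the −log10 of the global IDR were used. Another 15 value columns had no names and were not used, so replicate signals came from each replicate's own lists. One label field gives an age in hours that no embryo could have, and the embryo age was taken from the other label.

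Genes and TSS came from the Ensembl release 115 annotation of BDGP6.54 and sequence from the RefSeq assembly of the same genome build. A gene was bound when a summit lay within 500 bp of a TSS, and its strongest such peak gave its signal. Shares carry 95% Wilson intervals; no test was run, since the samples form 1 group. Signals of the lists are set side by side only as each list gives them. Proteins were translated from the annotated coding sequence and aligned globally with BLOSUM62 (Biopython 1.88). Python 3.11.15, numpy 2.4.6, pandas 2.3.3 and matplotlib 3.10.9 were used. The assignment step was tested on simulated data, where 101 of 101 summits placed within 500 bp of a TSS were recovered.

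Genes named with values were the 5 strongest bound subunit genes of each complex, bound genes with a paralog, unbound core subunit genes of complex I, unbound subunit genes of complexes II and III, and the 3 strongest genes of each other list; other bound genes were given by symbol and signal. ATPsynC, ATPsynO, COX4, COX7A, COX7AL2, ND-23 with its replicate values, the genes with other symbols, Cyt-c-d, Cyt-c-p and the genes farthest from or closest to a summit were named after their values had been seen. Sequences are shown for complexes I, II, IV and V and for the pair SdhC and SdhCL, the lowest in protein identity among pairs off 2R with a bound member of the set; that of complex III is not reported here. The members and gene lists were chosen with earlier results of these data known. Of 30 assembly factors listed, 14 symbols were not matched. For the TCA cycle list 2 of 16 symbols were not matched, and for the list with the electron carriers 1 of 10. Alternatives were other promoter widths, peak sets, single replicates, a stricter signal, peak centres, the first TSS and the nearest gene, with tied genes kept. The 5 genes with other symbols were added after seeing the data.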

Additional observations from a re-analysis of the deposited data

How the results depend on the processing

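The count of 29 bound genes stayed within a factor of 1.5 under every alternative tried except the assignment of each summit to its nearest gene, which gave 18. Leaving out 1 replicate gave 22 to 31. Under the nearest-gene rule complex I fell from 13 to 8 genes, complex II from 2 to 1 and complex IV from 6 to 2. Complex II also gave 1 gene with a promoter of 200 bp, with the stronger peaks alone and in the set of replicate 2, and 1 to 2 when either replicate was left out. Complexes I, III, IV and V gave 9 to 14, 2 to 3, 6 and 4 to 6 genes without 1 replicate. The suffixed paralogs gave 0 in each. The median signal of bound genes moved from 323 to 168 without replicate 1 and to 194 without replicate 2, since the lists of single replicates carry their own signal values. The median summit position stayed between −76.5 and −59 bp. Depth could not be judged from the peak lists, so a gene without a peak is one not detected at the depth of these samples. No paired analysis was possible because the samples form 1 group.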
